A study of Mus musculus with 14 samples.

Results

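H3K27ac, the acetylation of lysine 27 of histone H3, was mapped by CUT&RUN in Th1 cells of a mouse strain labelled Ets1-SE-KO (KO) and in wild-type (WT) Th1 cells, and the width and position of the marked regions were compared. The comparison holds the 4 H3K27ac libraries of the 14 libraries of the study, 2 per genotype, taken by the antibody and genotype in their titles. KO cells came from strain C57BL/6J-Ets1-SE-KO and WT cells from C57BL/6J. In both groups naive CD4 T cells were isolated from spleen by negative selection and cultured for 6 days on coated anti-CD3 with soluble anti-CD28, IL-12 (10 ng/mL) plus IL-2 (1 ng/mL), a culture that drives Th1 differentiation. The labels give neither the age of the mice nor the coordinates of the altered element. The titles describe the 2 KO libraries as biological replicates whereas both WT libraries are technical repeats of a single biological replicate, so the spread over WT libraries is a technical one and no value here carries the variation between WT mice.

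In CUT&RUN an antibody guides a nuclease to its target, and the released DNA is sequenced. H3K27ac is written by the acetyltransferases p300 and CBP and marks active promoters and enhancers. Long, nearly continuous stretches of the mark lie over genes that define a cell type. ETS1 is a transcription factor of the ETS family that binds enhancers of T cells together with RUNX1, and it is needed for Th1 cells to make their cytokines. Th1 cells are the helper T cells that secrete interferon gamma under the control of T-bet.

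The deposited values are peak lists, 1 per library, without read counts. Peaks on chromosomes 1 to 19 and X were used, and the window from 32 to 34 Mb of chromosome 9, which holds Ets1, was left out of every comparison. Because a longer list covers more sequence, an equal number of peaks was also taken, the 24530 of each library with the highest −log10 q. Covered length per library, numbers of merged regions, distance zones and counts over all genes are given at all peaks and at equal number. The other H3K27ac results are at equal number unless another setting is named. In these bulk samples a change in the share of cells that carry the mark and a change in each cell cannot be told apart.

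The altered locus was read first. Over the body of Ets1, at 32636241 to 32757820 on chromosome 9 (GRCm38), H3K27ac peaks covered 24.2 and 23.4 kb in the KO libraries, against 46.6 and 44.1 kb in the WT libraries, at all peaks. Both KO libraries lay below both WT libraries, while Ets1 still carried peaks in KO cells.

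Some promoters were reached by peaks in 1 genotype alone. The sequences of 4 such promoters, chosen after their values were seen, are shown because the rest of the comparison turns on where acetylation begins and ends around starts. Each is the 300 bases from 250 before to 50 after the start, from RefSeq on GRCm38.p6, written 5′ to 3′ on the strand of the gene. Capitals mark CCGGAAG or its reverse complement CTTCCGG, a form of the sites that ETS proteins bind, searched on both strands. Other forms of ETS sites, which share the shorter core GGAA, were not searched. Satb1 encodes a chromatin organizer of developing and resting T cells, and Tagap a GTPase-activating protein induced by T cell activation. The promoters shown, at chr17:51812005-51812304 on the minus strand and chr17:7925750-7926049 on the plus strand, were reached by peaks in KO libraries alone. Prf1 encodes perforin, the pore-forming protein of cytotoxic granules, and Adam19 a membrane metalloprotease. The promoters shown, at chr10:61297586-61297885 and chr11:46055734-46056033, both on the plus strand, were reached by peaks in WT libraries alone.
Satb1: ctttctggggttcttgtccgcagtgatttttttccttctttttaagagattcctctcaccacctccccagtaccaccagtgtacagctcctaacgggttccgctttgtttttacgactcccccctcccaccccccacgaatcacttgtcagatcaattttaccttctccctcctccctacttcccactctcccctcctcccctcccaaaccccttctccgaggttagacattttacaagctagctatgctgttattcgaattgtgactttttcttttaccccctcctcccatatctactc
Tagap: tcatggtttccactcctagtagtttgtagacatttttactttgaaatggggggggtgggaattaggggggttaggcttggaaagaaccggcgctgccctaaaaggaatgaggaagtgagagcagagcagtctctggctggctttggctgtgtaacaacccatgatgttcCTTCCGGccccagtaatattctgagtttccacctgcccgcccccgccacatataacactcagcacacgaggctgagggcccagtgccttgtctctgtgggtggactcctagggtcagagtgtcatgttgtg
Prf1: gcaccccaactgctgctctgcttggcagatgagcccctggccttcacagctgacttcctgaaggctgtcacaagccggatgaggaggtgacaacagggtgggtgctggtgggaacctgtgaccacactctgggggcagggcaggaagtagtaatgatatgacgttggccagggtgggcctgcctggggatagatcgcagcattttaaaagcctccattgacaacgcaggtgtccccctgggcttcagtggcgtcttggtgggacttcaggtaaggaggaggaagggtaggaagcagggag
Adam19: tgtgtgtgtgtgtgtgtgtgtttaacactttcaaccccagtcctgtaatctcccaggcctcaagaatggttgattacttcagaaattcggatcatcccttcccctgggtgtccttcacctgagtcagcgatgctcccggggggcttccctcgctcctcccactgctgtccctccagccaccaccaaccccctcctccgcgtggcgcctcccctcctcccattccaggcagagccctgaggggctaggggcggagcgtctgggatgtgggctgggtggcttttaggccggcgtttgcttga
Peaks lay over 300 and 300 of the 300 Satb1 bases in KO libraries and over 0 and 0 in WT libraries, and over 300 and 202 of the Tagap bases in KO libraries and 0 and 0 in WT libraries. They lay over 0 and 0 of the Prf1 bases in KO libraries and 300 and 300 in WT libraries, and over 0 and 0 of the Adam19 bases in KO libraries and 164 and 140 in WT libraries. Of the 4 promoters shown, Tagap holds the motif as searched, and the lack of capitals in the others does not exclude other ETS sites. Satb1 has 4 other promoters in the table, and all of these were reached by peaks in all 4 libraries, so the promoter shown is an internal one of a gene marked in both genotypes. Adam19 has 2 other promoters, of which 1 had no peak in any library and 1 had a peak in the first WT library alone.

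Promoters marked in a single genotype were few. Of 21015 promoters in the table, from 17248 of 21626 genes used, 281 had a peak in both KO libraries and in neither WT library, and 60 had a peak in both WT libraries and in neither KO library, at equal number. Peaks of all 4 libraries reached 7794 promoters, and 11510 had none. The motif stood in 14.9% of the 281 KO-only promoters and in 10% of the 60 WT-only promoters, against 23.8% of promoters marked in all 4 libraries, 3.23% of unmarked ones and 11.7% of all. The median GC content was 57.0% in KO-only and 60.3% in WT-only promoters, against 63.0% in those marked in all 4 and 50.7% in unmarked ones, and the median number of CpG dinucleotides was 18 and 13.5, against 24 and 5. Promoters marked in 1 genotype were thus between unmarked and commonly marked promoters in GC content and CpG number.

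H3K27ac covered more of the genome in KO cells, in somewhat more and mainly wider peaks. At all peaks the KO libraries had 26429 and 28603 peaks covering 27.97 and 28.49 Mb, and the WT libraries had 24666 and 24530 peaks covering 21.7 and 21.2 Mb. The means were 28.2 ± 0.371 Mb in KO and 21.5 ± 0.362 Mb in WT (SD, n = 2 each), a ratio of 1.32. Both KO libraries exceeded both WT libraries by far more than the libraries of a genotype differed. With 2 against 2 libraries the exact two-sided permutation test can give no p below 0.333, and it gave p = 0.333 for covered length, for peak number and for median width. No call of significance is therefore possible for any value per library in this comparison. Depth is unknown, and its part in the covered length was not tested. The labels name 2 read lengths and 2 sequencing instruments without saying which library had which. The IgG control libraries, 1 per genotype, had 285 peaks in KO and 2 in WT. The KO IgG peaks lay over 2180 bp of the sequence that was acetylated in KO alone at equal number, which is 0.065% of it.

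The greater covered length remained when the number of peaks was made equal. The top 24530 peaks covered 27.2 and 26.7 Mb in KO libraries and 21.7 and 21.2 Mb in WT libraries, a ratio of 1.26. Their median width was 743 and 748 bp in KO libraries and 617 and 607 bp in WT libraries. The shift ran through the whole distribution, since the 10th percentile averaged 201 bp in KO and 183 bp in WT and the 99th averaged 6274 bp in KO and 4495 bp in WT. Among the top 10000 peaks the ratio of covered length was 1.25, and that of median width was 1.19. Both KO libraries covered more than both WT libraries on each of the 19 autosomes and on X at equal number. The log2 ratio of covered length lay between 0.25 and 0.42 on the autosomes and was 0.48 on X.

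**Figure D1:**
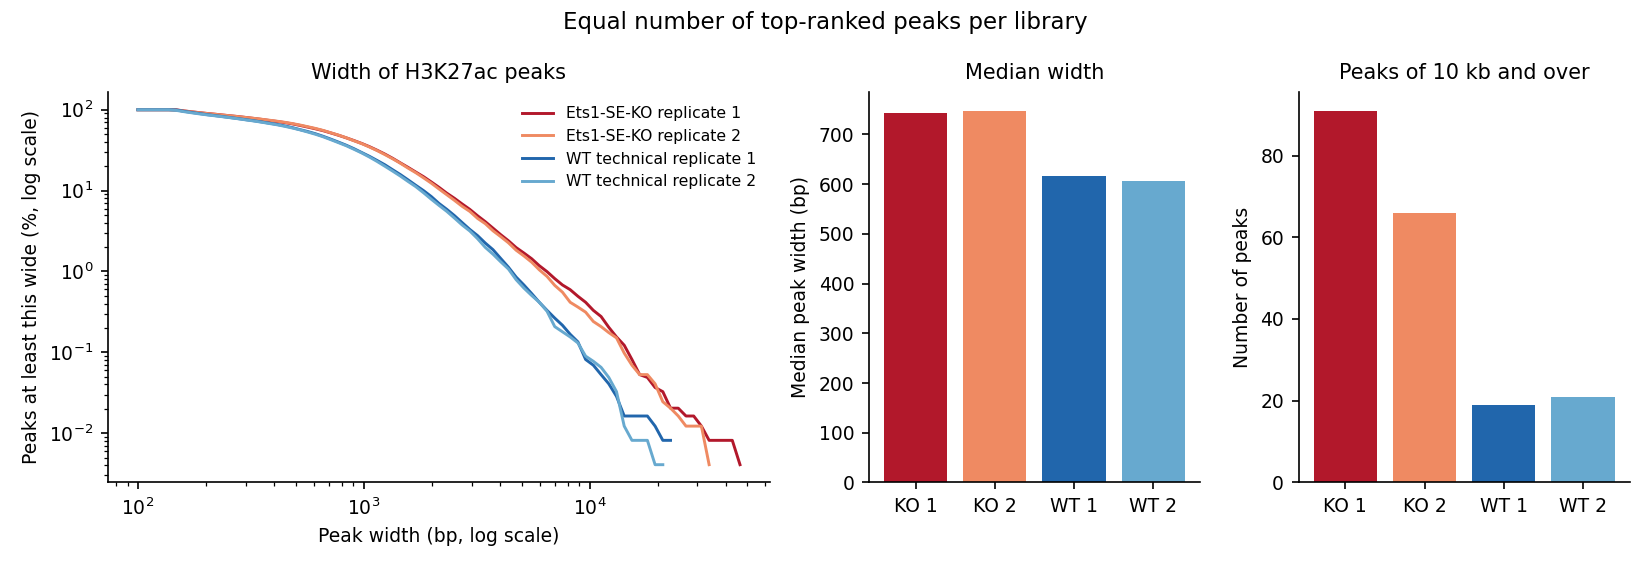
Width of H3K27ac peaks at an equal number of 24530 peaks per library: share of peaks at least as wide as the value on the x axis (both axes on log scales), median width in bp, and number of peaks of 10 kb and over, with a line or bar per library. The KO curves lie to the right of the WT curves, and the KO libraries had 91 and 66 peaks of 10 kb and over against 19 and 21 in the WT libraries.

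Broad domains differed most. Peaks of 5 kb and over numbered 439 and 400 in KO libraries and 178 and 167 in WT libraries, and they held 13.3% and 11.9% of covered length at equal number in KO against 5.99% and 5.71% in WT. Peaks of 10 kb and over numbered 91 and 66 in KO libraries and 19 and 21 in WT libraries. Together these held a mean of 1.15 Mb in KO and 0.269 Mb in WT. The widest peak spanned 48063 and 33876 bp in the KO libraries and 23912 and 22269 bp in the WT libraries. After peaks less than 1 kb apart were joined in each library, the log2 ratio for the number of 10 kb and over was 1.07 at equal number, against 1.97 without joining.

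The additional sequence covered in KO was mostly next to, or between, peaks that both genotypes shared. Peaks of the 4 libraries merged into 33814 regions at equal number. All 4 libraries had a peak in 15399 of them, both KO libraries alone in 1717 (5.08%) and both WT libraries alone in 1282 (3.79%). The order of these numbers turned round when a WT library was left out, with 2753 KO-only and 3562 WT-only regions without the first and 2676 KO-only and 3666 WT-only regions without the second. Without the first KO library they were 4563 and 2057, and without the second 4675 and 2086. Leaving out a library eases the rule for its own genotype, so these counts cannot decide the order. At all peaks, with every library kept, 16027 regions were shared, 2585 (7.1%) KO-only and 973 (2.67%) WT-only, of 36404. The shared regions carried 78.5% of the difference in covered length at equal number, 4.31 of 5.49 Mb, and 64.9% at all peaks. Within the shared regions the KO libraries had fewer peaks, 16223 and 16407 against 17339 and 17566 in the WT libraries, and these covered 23.2 and 22.9 Mb in KO against 18.9 and 18.6 Mb in WT. Shared regions were thus cut into fewer and longer pieces in KO libraries.

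Widening was seen at regions of every width and more often at the widest. At equal number 7594 shared regions (49.3%) were wider in both KO libraries than in both WT libraries, and 1139 (7.40%) were wider in both WT libraries, with a median ratio of 1.16. Of the 13049 regions with exactly 1 peak in every library, 6148 were wider in KO and 980 in WT, with a median ratio of 1.13. Of the 2350 regions with several peaks in at least 1 library, 1446 were wider in KO and 159 in WT, with a median ratio of 1.38. By the mean over the 4 libraries, the share wider in KO was 38.2% of regions under 500 bp, 51.5% of those of 1000 to 2000 bp, 74.8% of the 298 regions of 5 to 10 kb and 82.2% of the 73 regions of 10 kb and over. The median ratio changed less across these classes, at 1.16, 1.14, 1.23 and 1.24 in the same order. In the last class the KO libraries had 123 and 151 peaks and the WT libraries 298 and 316.

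The bases themselves were sorted by the libraries that covered them. At equal number 3.35 Mb was covered in both KO libraries and in neither WT library, 0.850 Mb in both WT libraries and in neither KO library, and 14.8 Mb in all 4. Of the KO bases, 56.5% lay at an outer edge of a region that WT also marked, 25.2% in a gap between WT peaks and 18.3% in regions with no WT peak. Of the WT bases, 46.3% lay at an outer edge, 8.47% in a gap between KO peaks and 45.2% in regions with no KO peak. KO bases were thus more often bridges between existing peaks, and WT bases more often separate peaks.

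Each of the 10 regions with the greatest KO excess had on average fewer peaks in KO libraries than in WT libraries. The widest excess lay over Cd5, which encodes an inhibitory receptor on T cells, and its neighbours, at chr19:10714660-10796610. Peaks covered 81.1 and 79.0 kb of this region in KO libraries, as 2 and 5 peaks, against 61.2 and 61.2 kb in WT libraries, as 17 and 18 peaks. At Rhoh, an atypical small GTPase of haematopoietic cells that takes part in T cell receptor signalling, the region chr5:65855517-65873411 was covered over 17.6 and 16.9 kb in KO libraries and 5.72 and 4.45 kb in WT libraries. That stretch was 1 and 2 peaks in KO libraries and 8 and 9 peaks in WT libraries. Near Dad1, at chr14:54179016-54222501 in the neighbourhood of the T cell receptor alpha locus and 12984 bp from Dad1, 43.4 and 41.8 kb were covered in KO libraries and 33.3 and 34.3 kb in WT libraries. Other regions among the 10 with the greatest KO excess lay in or nearest to Ms4a6c, Ubr4, Atf5, Slc48a1, Il12rb2 and Ikzf1. Each of the 10 was marked in all 4 libraries, and their mean excess in KO ran from 6.39 to 18.8 kb.

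**Figure D2:**
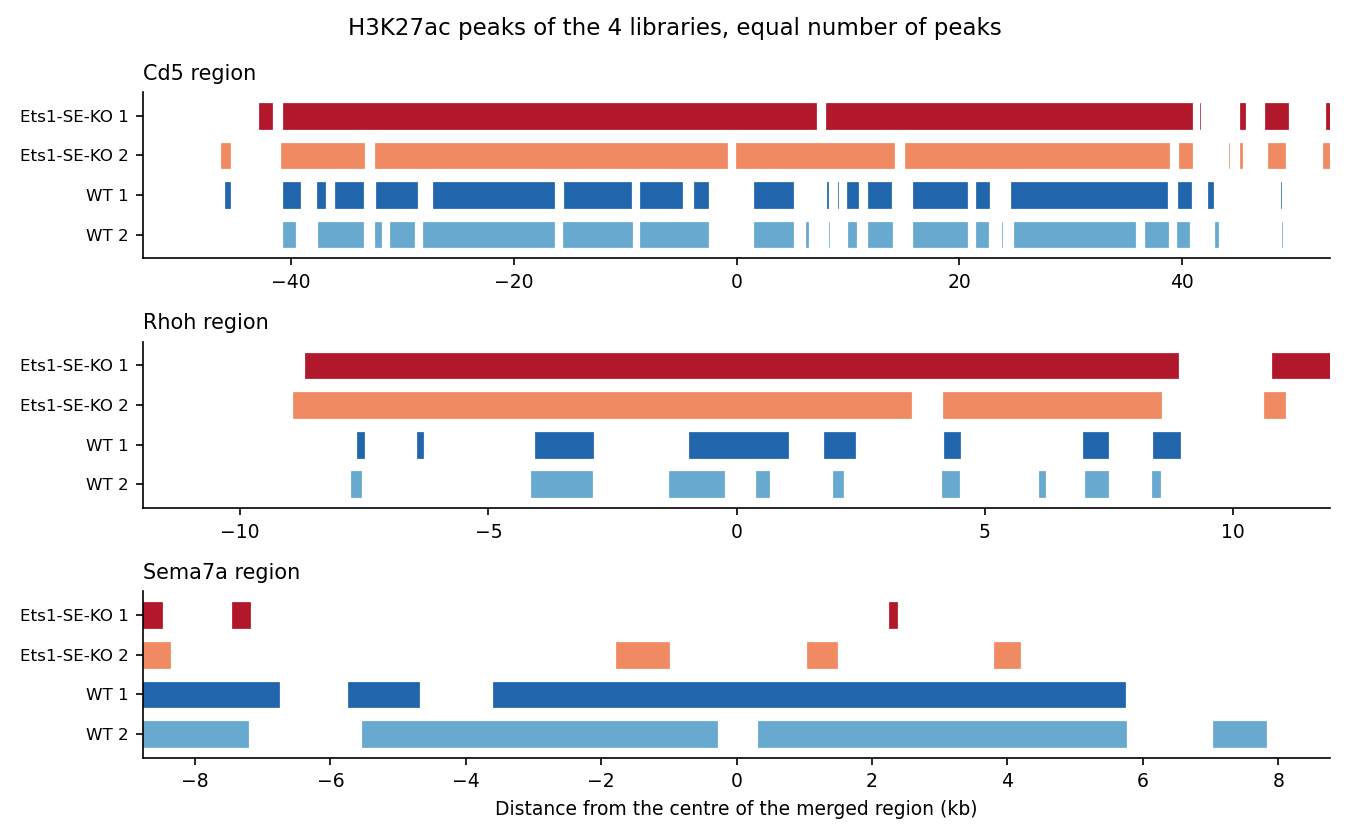
H3K27ac peaks of the 2 KO and 2 WT libraries over 3 merged regions at equal number, drawn as bars against distance from the centre of the region in kb. Cd5 and Rhoh show long KO peaks where WT has several shorter ones, and Sema7a shows long WT peaks where KO has short ones or none.

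Regions with a WT excess were shorter, apart from Sema7a. Sema7a encodes a membrane-anchored semaphorin found on activated T cells, and its region chr9:57943818-57955340 was covered over 0.154 and 1.68 kb in KO libraries and 10.4 and 10.7 kb in WT libraries. It lies on chromosome 9 outside the Ets1 window. The other 9 of the 10 regions with the greatest WT excess differed by -3.24 to -2.34 kb (KO mean minus WT mean). Among them, the regions in Cyrib, Tspan9 and Adam19 had no peak in either KO library. At Cyrib, which encodes a Rac1-binding regulator of the actin cytoskeleton, 2.90 and 3.59 kb were covered in WT libraries. At Gatad2a, which encodes a subunit of the NuRD chromatin complex, 1.82 and 1.91 kb were covered in KO libraries and 4.51 and 4.38 kb in WT libraries. The remaining 5 lay in Galnt9, Ablim1, Stk10 and Tex2 and 96711 bp from Egln3.

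As a ratio, the difference was smallest at gene ends and greater next to them. At equal number the log2 ratio of KO over WT covered length was 0.24 up to 1 kb away from the nearest end of any protein-coding gene, 0.42 from 1 to 2 kb, 0.44 from 2 to 5 kb, 0.43 from 5 to 10 kb, 0.33 from 10 to 50 kb and 0.26 from 50 to 200 kb. At all peaks these were 0.26, 0.48, 0.53, 0.53, 0.42 and 0.34. Within 1 kb the covered length was 8.71 and 8.66 Mb in KO libraries and 7.43 and 7.30 Mb in WT libraries, and from 2 to 5 kb it was 3.40 and 3.30 Mb in KO libraries and 2.50 and 2.44 Mb in WT libraries. Beyond 200 kb the log2 ratio was 0.67 at equal number, on only 0.270 Mb in KO and 0.170 Mb in WT. In every zone both KO libraries exceeded both WT libraries (p = 0.333, exact permutation test, n = 2 each). Between 1 and 10 kb the log2 ratio of every KO library over every WT library was at least 0.36, while within 1 kb it was at most 0.26. The pairs of the zone from 50 to 200 kb, at 0.21 to 0.30, overlapped with those within 1 kb.

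A profile around transcription starts, with the strand of each gene, gave the same shape. The start itself lay under a peak for 39.2% and 40.4% of starts in KO libraries and 37.3% and 36.4% in WT libraries, a ratio of means of 1.08. At 0.5 kb downstream the ratio was 1.15, at 1 kb 1.34 and at 1.5 kb 1.42, where 5.91% and 5.39% of starts were covered in KO libraries and 4.03% and 3.90% in WT libraries. Upstream the ratio was 1.32 at 1 kb and 1.44 at 2.5 kb. Among the 7022 starts covered in all 4 libraries the ratio was 1.14 at 0.5 kb downstream and 1.46 at 1.5 kb. That choice fixes the ratio at 1 at the start, so wider KO peaks alone make it rise, and it adds no separate evidence on shape. Among the 26098 edges of regions with 1 peak in every library, 72.7% lay further out in KO. Where the region held starts on 1 strand, the median outward shift was 41 bp at the downstream edge and 30 bp at the upstream edge. Of these edges 77.1% and 77.7% lay further out in KO. The shift was not particular to starts. At the 14460 edges of regions without a start its median was 30.5 bp, and 68.7% lay further out in KO.

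**Figure D3:**
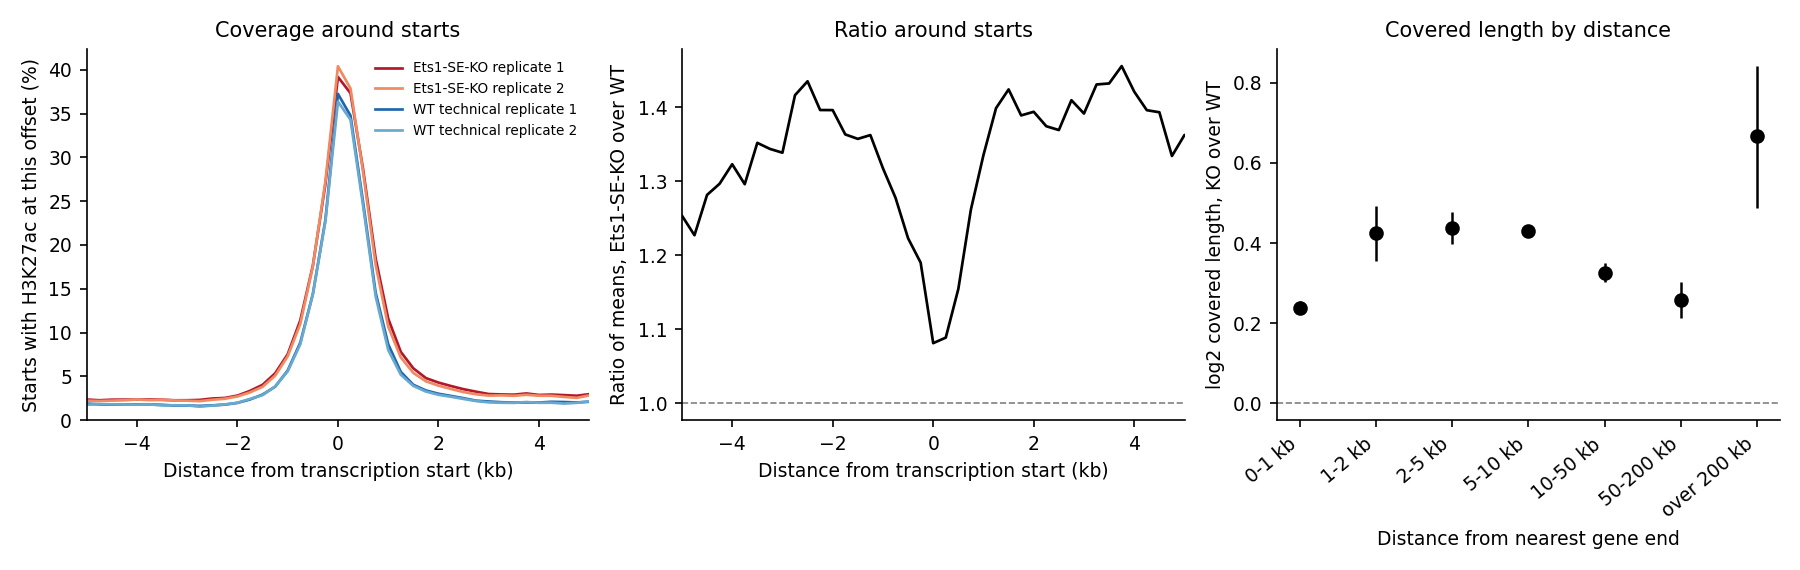
Left, share of transcription starts with an H3K27ac peak at each distance from the start in kb, a line per library at equal number. Middle, ratio of the mean share in KO to that in WT. Right, log2 ratio of covered length by distance from the nearest gene end, with the lowest and highest of the 4 pairs of a KO and a WT library as the line. The ratio is 1.08 at the start and 1.42 at 1.5 kb downstream, and the log2 ratio is 0.24 within 1 kb and 0.44 from 2 to 5 kb.

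The bases covered in KO alone and in WT alone lay at different distances. Of the bases covered in both KO libraries alone, 20.5% lay within 1 kb of a gene end and 39.9% at 10 kb and over. Of those covered in both WT libraries alone, 10.7% lay within 1 kb and 58.0% at 10 kb and over. Of the bases covered in all 4 libraries, 41.7% lay within 1 kb and 28.9% at 10 kb and over. Inside gene bodies lay 72.3% of the KO bases, 77.5% of the WT bases and 75.5% of those common to all 4.

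Per gene, covered length was summed over the gene body with 10 kb on either side, and a gene was called higher in a genotype when both libraries of it exceeded both of the other. With 2 libraries a group such a call is a description and not a test. At all peaks 13277 of 21626 protein-coding genes had a peak in at least 1 library, of which 7171 (54%) were higher in KO and 845 (6.36%) higher in WT. At equal number 6553 of 13125 genes (49.9%) were higher in KO and 1056 (8.05%) higher in WT, with a median log2 ratio of 0.15 after 1 kb was added to each mean. Large differences were few, since 205 genes were over 2-fold higher in KO and 39 over 2-fold higher in WT. Between the 2 KO libraries 77 genes differed by over 2-fold, and between the 2 WT libraries 49 did, against 359 to 454 between a KO and a WT library.

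The split between the genotypes moved with the total covered length. When each library was cut to the same covered length, which took 14891 and 15902 peaks in KO libraries and 23341 and 24530 in WT libraries, 4241 of 12764 genes (33.2%) were higher in KO and 2494 (19.5%) higher in WT. Since this shortens the KO lists far more than the WT lists, coverage falls mainly in KO, and a gene that stays higher in WT here is no further evidence. KO-higher genes then made up 63.0% of the called genes, against 86.1% at equal number, and the median log2 ratio was 0.04, against 0.15.

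**Figure D4:**
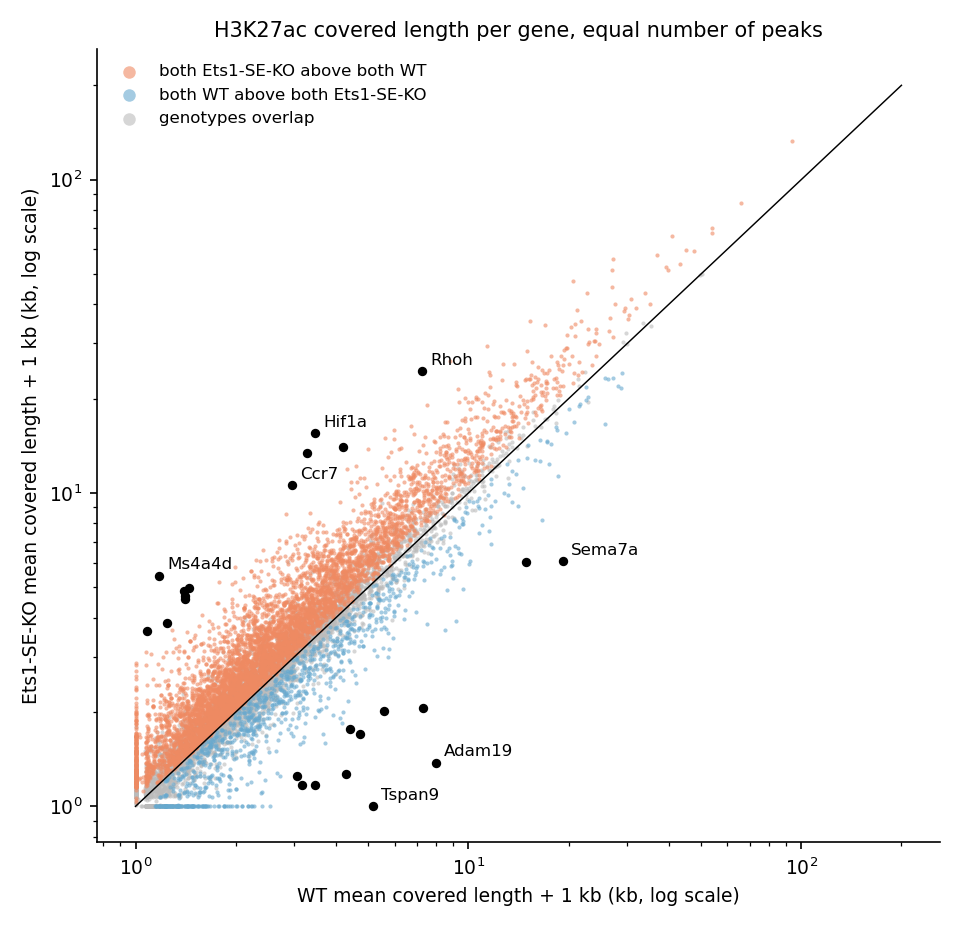
H3K27ac covered length per gene with 10 kb flanks at equal number: KO mean against WT mean, each plus 1 kb, on log scales, with 1 point a gene. Points above the line are higher in KO, and black points are the 24 genes with the highest or lowest log2 ratio among separated genes of at least 2 kb.

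Genes with the highest ratios in KO included T cell receptors and regulators. Hif1a encodes the oxygen-regulated subunit of the hypoxia-inducible factor, which also drives glycolysis in activated T cells. It was covered over 15.4 and 13.7 kb in KO libraries and 3.04 and 1.87 kb in WT libraries, a log2 ratio of 2.17, and the genotypes were far apart. With covered length made equal Hif1a had 3.19 and 10.3 kb in KO libraries and 3.04 and 1.87 kb in WT libraries, so the first KO library then lay close to the WT libraries. Ccr7, the chemokine receptor that guides naive T cells into lymph nodes, was covered over 9.26 and 9.93 kb in KO libraries and 1.67 and 2.23 kb in WT libraries, a log2 ratio of 1.84. Cd226, an activating receptor for nectin-family ligands, had 15.2 and 9.77 kb in KO libraries and 1.73 and 2.82 kb in WT libraries. The KO libraries differed by over 5 kb at Cd226, and the lower of them was still above both WT libraries. Rhoh had 24.8 and 22.3 kb in KO libraries and 7.61 and 4.89 kb in WT libraries. Eif4enif1, which encodes a protein that carries the cap-binding factor eIF4E into the nucleus, had 14.7 and 11.3 kb in KO libraries and 2.44 and 3.96 kb in WT libraries. Tagap, whose promoter is shown above, had 3.93 and 1.75 kb in KO libraries and 0.057 and 0.423 kb in WT libraries. Of the 12, Ms4a4d, Sgip1, Fam3c, Snrnp70 and Cacnb3 had at most 5.36 kb in a KO library and at most 0.678 kb in a WT library. With covered length made equal, Sgip1 and Tagap were no longer separated.

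Genes with the lowest ratios included a semaphorin, a tetraspanin and signalling genes. Adam19 was covered over 0.310 and 0.446 kb in KO libraries and 7.53 and 6.44 kb in WT libraries, a log2 ratio of -2.53. Sema7a had 4.24 and 5.86 kb in KO libraries and 17.8 and 18.6 kb in WT libraries, a log2 ratio of -1.67. Tspan9, a tetraspanin of the cell membrane, had no peak in either KO library and 4.54 and 3.77 kb in WT libraries. Smad3, the transcription factor activated by TGF-beta receptors, had 0.520 and 1.52 kb in KO libraries and 5.75 and 3.39 kb in WT libraries. Among the top 10000 peaks its log2 ratio was 0.06, with the opposite sign. Dusp7, a phosphatase of the MAP kinase ERK, had 1.27 and 0.277 kb in KO libraries and 2.79 and 4.04 kb in WT libraries. Tex2 had 5.48 and 4.60 kb in KO libraries and 12.8 and 15.1 kb in WT libraries. The other 6 of the 12 were Agpat4, Galnt9, Wscd2, Igsf23, Sytl2 and Tafa3.

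Gene lists were read against the 49.9% of all genes that were higher in KO and the 8.05% higher in WT, all at equal number. Counts at equal covered length are to be read against 33.2% and 19.5%. Among the 4740 genes with a covered length of 2 kb and over, the median was higher, at 0.24, with 2845 higher in KO and 374 in WT. A list median above 0.15 thus need not set a list apart from well-covered genes. The medians of T cell receptor signalling (0.24), oxidative phosphorylation (0.21) and glycolysis (0.18) lay at or below that 0.24. Of 19 lists, 16 had at least 5 members with a peak, and 14 of these had a median log2 ratio above the 0.15 of all genes. The Th1 programme was among the 2 that did not. Of its 27 members with a peak, of 30, 8 were higher in KO and 4 in WT, with a median of 0.01. At equal covered length 6 were higher in KO and 8 in WT, and the median was -0.10. Il12rb2, the signalling chain of the IL-12 receptor, had 18.5 and 11.4 kb in KO libraries and 4.31 and 5.65 kb in WT libraries. Prf1 had no peak in either KO library and 0.903 and 0.661 kb in WT libraries. Havcr2, which encodes the receptor TIM-3 of terminally differentiated Th1 cells, had no peak in either KO library and 0.374 and 0.398 kb in WT libraries, a direction that turned round with 50 kb flanks.

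Most genes of the Th1 programme had a peak, 27 of 30, while a few defining genes had little or none. Tbx21, which encodes T-bet, had 10.8 and 8.70 kb in KO libraries and 8.98 and 9.68 kb in WT libraries, so the genotypes overlapped. Cd4 had 6.33 and 6.26 kb in KO libraries and 5.23 and 5.35 kb in WT libraries. Ifng had a peak in the first WT library alone, of 0.727 kb, and Cxcr3 and Ccl5 had no peak in any library. Cd8a, Ncr1 and Gzma, which define CD8 T cells and natural killer cells, also had no peak in any library, and 2 of that list's 12 members had one.

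Genes of naive and resting T cells had the highest median of the 16 lists, 0.57. Of the 16 members 12 were higher in KO and 0 in WT, and at equal covered length 10 of 15 were higher in KO and 0 in WT. Satb1 had 36.9 and 32.1 kb in KO libraries and 14.1 and 14.4 kb in WT libraries, and Ccr7 is given above. Lef1, a transcription factor of the TCF family, had 31.1 and 30.8 kb in KO libraries and 19.9 and 17.6 kb in WT libraries. Lef1 was picked after its values were seen. Markers of resting T cells thus stayed higher in KO at equal covered length, with a median of 0.31 against 0.04 for all genes. This was not particular to them, since costimulatory and inhibitory receptors then had a median of 0.28 and cytosolic ribosomal proteins 0.27. The part of remaining undifferentiated cells in this was not tested.

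Of the 29 genes of the T cell receptor complex and its signalling, 18 were higher in KO and 6 in WT, with a median of 0.24. Rasgrp1, the exchange factor that activates Ras below the receptor, had 9.39 and 10.9 kb in KO libraries and 3.75 and 3.72 kb in WT libraries. Plcg1, a phospholipase that raises calcium below the receptor, was lower in KO, with 5.28 and 5.43 kb in KO libraries and 7.16 and 8.51 kb in WT libraries. Vav1, an exchange factor for Rac, had 5.62 and 5.70 kb in KO libraries and 7.37 and 8.13 kb in WT libraries. Of the 29, 12 were higher in KO and 8 in WT at equal covered length, where the median was 0.06 against 0.04 for all genes.

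Receptor genes differed in how far they followed the total covered length. Of 18 costimulatory and inhibitory receptors with a peak, 14 were higher in KO and 1 in WT, with a median of 0.40. Cd200, a ligand that restrains myeloid cells, had 28.7 and 22.1 kb in KO libraries and 7.59 and 8.03 kb in WT libraries. Tnfrsf1b, the TNF receptor 2, was the member higher in WT, with 2.98 and 2.68 kb in KO libraries and 6.42 and 6.62 kb in WT libraries. Of 27 cytokine receptors and JAK-STAT genes, 17 were higher in KO and 3 in WT, with a median of 0.32. Il2ra, the alpha chain of the IL-2 receptor, had 31.4 and 25.4 kb in KO libraries and 10.8 and 10.0 kb in WT libraries, and Il6ra had 25.4 and 21.3 kb in KO libraries and 10.1 and 10.99 kb in WT libraries. Il10ra had 1.71 and 1.79 kb in KO libraries and 2.92 and 2.72 kb in WT libraries. Jak3, the kinase bound to the common gamma chain, had 8.74 and 8.91 kb in KO libraries and 12.1 and 12.3 kb in WT libraries, and its direction turned round when the flanks were left out. At equal covered length 11 of the 18 costimulatory and inhibitory receptors were higher in KO and 2 in WT, with a median of 0.28. Of the 27 cytokine receptors and JAK-STAT genes, 11 were then higher in KO and 4 in WT, with a median of 0.09.

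Of 36 transcription factors of T cells, 27 were higher in KO and 4 in WT, with a median of 0.26, and 19 and 5 at equal covered length, with a median of 0.15. Besides Hif1a the highest ratio was that of Tox, a factor of exhausted and developing T cells, with 3.09 and 2.12 kb in KO libraries and 0.336 and 0.515 kb in WT libraries. Runx1, a partner of ETS1, had 7.43 and 8.37 kb in KO libraries and 9.50 and 10.9 kb in WT libraries. Maf had no peak in either KO library at equal number and 0.755 and 0.237 kb in WT libraries, and at all peaks the genotypes overlapped. In the ETS family itself, without Ets1 and with 14 of 17 members marked, 11 were higher in KO and 0 in WT, with a median of 0.38. Etv6, a repressor of the family, had 28.5 and 26.1 kb in KO libraries and 14.9 and 13.0 kb in WT libraries, and Elk3 had 24.4 and 23.97 kb in KO libraries and 14.3 and 16.0 kb in WT libraries. At equal covered length 6 of the 13 members then marked were higher in KO and 1 in WT.

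**Figure D5:**
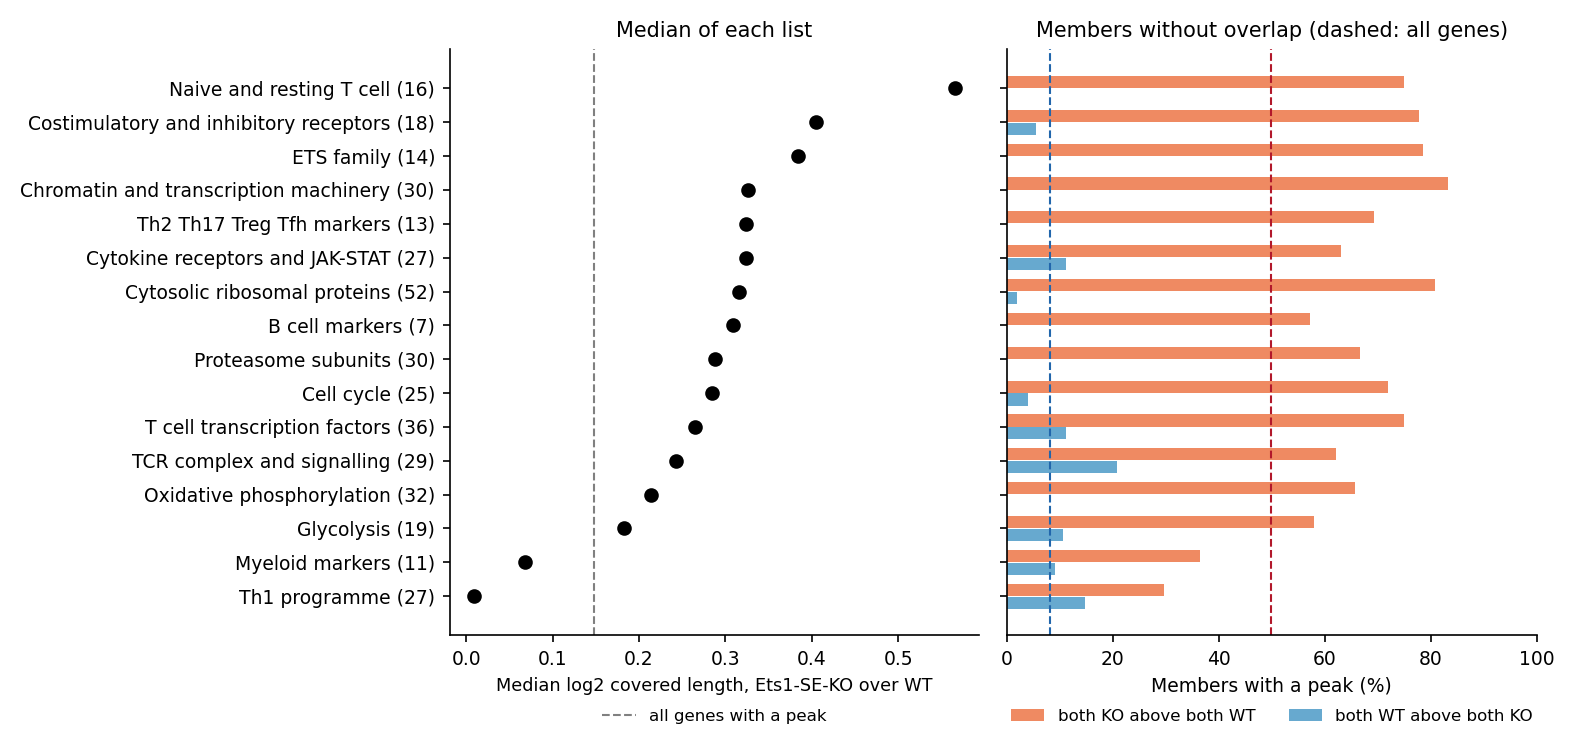
H3K27ac covered length of 16 gene lists at equal number, with the number of members with a peak in brackets. Left, median log2 ratio of KO over WT, with that of all genes as a dashed line. Right, share of members higher in both KO or in both WT libraries, with the shares of all genes as dashed lines (49.9% and 8.05%). The list of naive and resting T cell genes has the highest median, 0.57, and the Th1 programme the lowest, 0.01.

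Genes used in every cell were also covered more in KO at equal number, while at equal covered length most of these lists lay nearer to all genes. Of 52 genes of cytosolic ribosomal proteins, 42 were higher in KO and 1 in WT, with a median of 0.32. At equal covered length 32 of them were higher in KO and 2 in WT. Their median was then 0.27 against 0.04 for all genes, so this list did not move nearer to all genes. Rpl6 had 4.11 and 3.70 kb in KO libraries and 1.28 and 1.57 kb in WT libraries. Of 30 chromatin and transcription genes 25 were higher in KO and 0 in WT, with a median of 0.33. Of 30 proteasome genes 20 were higher in KO and 0 in WT, with a median of 0.29, and of 32 genes of oxidative phosphorylation 21 were higher in KO and 0 in WT, with a median of 0.21. Of 25 cell cycle genes 18 were higher in KO and 1 in WT, with a median of 0.28, led by Ccnd2, which encodes cyclin D2 and had 16.4 and 14.3 kb in KO libraries and 5.11 and 6.31 kb in WT libraries. Of 19 glycolysis genes 11 were higher in KO and 2 in WT, with a median of 0.18 that was -0.13 at equal covered length. Slc2a3, a glucose transporter, had 3.49 and 3.86 kb in KO libraries and 5.18 and 4.98 kb in WT libraries. At equal covered length 15 of 30 chromatin genes were higher in KO and 4 in WT, with a median of 0.09. The numbers were 12 and 2 of 30 proteasome genes, with a median of 0.09, and 14 and 3 of 32 genes of oxidative phosphorylation, with a median of 0.08. They were 7 and 4 of 25 cell cycle genes, with a median of 0.08, and 4 and 5 of 19 glycolysis genes.

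Markers of other cell types gave the following. Of 12 B cell markers 7 had a peak, 4 higher in KO and 0 in WT, with a median of 0.31, while Pax5, Ms4a1 and Cd79b had no peak in any library. The summed covered length of the B cell list was 15.4 and 14.6 kb in KO libraries and 10.48 and 9.94 kb in WT libraries, and its member with the greatest length in each library was Cd79a, with 7.49 and 8.58 kb in KO libraries and 5.79 and 4.05 kb in WT libraries. The Cd79a promoter had no peak in any library, so this length lay elsewhere in the gene window with its 10 kb flanks. Of 16 myeloid markers 11 had a peak, 4 higher in KO and 1 in WT, with a median of 0.07 that was -0.04 at equal covered length, and the summed length was 14.7 and 17.5 kb in KO libraries and 14.3 and 12.5 kb in WT libraries. Lyz2, S100a8 and Adgre1 had no peak in any library. Of 11 erythroid markers 3, and of 16 markers of non-haematopoietic cells 2, had a peak, and the globin genes had none. With equal covered length, 3 B cell markers were higher in KO and 2 in WT, and Cd79a was no longer separated. The part of other cells in the differences was not tested.

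The other antibodies were read over the same bases. CTCF peaks, which mark boundaries and loop anchors, lay over 16.3% and 14.1% of the KO-only acetylated bases in the KO libraries of CTCF and over 9.06% and 8.58% in its WT libraries. Over the WT-only bases they lay at 12.3% and 10.8% in KO and 10.2% and 11.8% in WT, and over the bases common to all 4 at 46.6% and 42.5% in KO and 29.8% and 30.6% in WT. CTCF lists were thus also longer in KO, and the CTCF covered length of genes was higher in KO for 66.7% of the genes with more H3K27ac in KO, 52.3% of those with more in WT and 62.2% of all. ETS1 lists were uneven, with 40689 and 9341 peaks in KO libraries and 14004 and 23390 in WT libraries, so the libraries of a genotype differed more than the genotypes. ETS1 covered length was higher in KO for 4.64% of the genes with more H3K27ac in KO, 2.97% of those with more in WT and 4.46% of all. It was higher in WT for 9.15%, 7.57% and 8.73% of the same groups of genes.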

How the data were processed

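H3K27ac, CTCF, ETS1 and IgG CUT&RUN peak lists of 14 libraries were used, 1 list per library. The submitters' processing notes name BWA and the build GRCm38. The peak caller, its options, any control and duplicate removal: not given in the sources used here. The deposited lists have 9 columns: a score, a fold ratio of signal, and −log10 p and −log10 q values per peak, all made by the authors before deposit. These values served only to rank peaks within a list.

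Peaks on chromosomes 1 to 19 and X outside chromosome 9, 32 to 34 Mb, were kept. The equal-number lists hold the 24530 peaks of each library with the highest −log10 q. Covered length was summed per library, per protein-coding gene with 10 kb flanks (RefSeq table, GRCm38) and by distance from gene ends. Log2 ratios per gene are KO mean plus 1 kb over WT mean plus 1 kb. Regions were merged at 1 bp of overlap. Library values were compared by an exact two-sided permutation test, whose p-values measure only the spread between these libraries, which is technical in WT. Genes and regions were called without a test where both libraries of 1 genotype exceeded both of the other. Depth is unknown because the files hold no read counts, so no counting interval is given.

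Named genes are the 12 with the highest and the 12 with the lowest log2 ratio at equal number among genes separated at all peaks and at equal number, with a mean of at least 2 kb in 1 genotype and without overlapping windows. Named regions are the 10 with the greatest excess in each genotype, and named list members are up to 2 in each direction. Any other gene was chosen with its values known. Not every gene these rules select is reported here. The members and the 19 gene lists were chosen with earlier results of these data known. Distance from transcription starts by strand was added after seeing the data. Scripts were tested on simulated data. Python 3.11.15, numpy 2.4.6, pandas 2.3.3, scipy 1.17.1 and matplotlib 3.10.9 were used.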

Additional observations from a re-analysis of the deposited data

How the results depend on the processing

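Under the alternatives run, the log2 ratios of covered length, median width, broad peak number and each distance zone stayed positive. Leaving out 1 library at a time gave log2 ratios of 0.38 to 0.41 for covered length at all peaks and 0.31 to 0.34 at equal number, 0.12 to 0.19 and 0.27 to 0.30 for median width, and 1.72 to 2.19 for peaks of 10 kb and over at both. With 1 library left out, 8480 to 9175 genes were higher in KO and 1413 to 1886 in WT at all peaks (median 0.16 to 0.19), and 7880 to 8322 in KO and 1845 to 2184 in WT at equal number (median 0.14 to 0.16). KO-only regions then numbered 3819 to 7045 at all peaks and 2676 to 4675 at equal number, and WT-only regions 1474 to 3052 and 2057 to 3666. At equal number WT-only regions outnumbered KO-only regions when either WT library was left out, which eases the rule for WT-only regions alone and so cannot decide the order. Shared regions wider in KO numbered 10090 to 10850 and 9988 to 10419, those wider in WT 2657 to 2861 and 2409 to 2735, with medians of 0.19 to 0.23 in both. Of the gene lists, 13 to 14 stayed above all genes. These counts are larger because separation from fewer libraries is easier to meet.

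The gene median at all peaks was 0.11 without flanks, 0.25 with 50 kb flanks, 0.29 with 0.2 kb added, 0.063 with 5 kb added and 0.29 for genes of 2 kb and over, of which 3211 were higher in KO and 294 in WT. At equal number these medians were 0.087, 0.20, 0.24, 0.052 and 0.24, with 2845 and 374 genes. At equal covered length 4241 genes were higher in KO and 2494 in WT with a median of 0.038. Among the top 10000 peaks the median was 0.12 with 668 genes higher in WT, and ranking by fold gave 0.13. Regions with 1 peak in every library had a median of 0.17 at all peaks and 0.18 at equal number. Where presence required 50% of a region to be covered, KO-only regions numbered 2973 at equal number.

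Reversed log2 ratios were 0.036 for Jak3, 0.069 for Ccne1 and -0.63 for Csf1r without flanks. With 50 kb flanks they were 0.35 for Havcr2, -0.078 for Rpl3, 0.55 for Rps14, 0.076 for Ccne1 and 0.31 for Mpo. At equal covered length they were -0.33 for Kmt2d, -0.29 for Pkm and -0.99 for Csf1r, and among the top 10000 peaks 0.060 for Smad3 and -0.011 for Pfkp. The Th1 list median was -0.0048 at all peaks and -0.0096 at equal number without the first KO library, and -0.016 at both without the first WT library. The cause was not tested. No paired analysis was possible because the replicate numbers are technical in WT and biological in KO, and the results come from no fitted test.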

Other observations

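Marker genes of other helper T cell lineages were covered more in KO at equal number. Of 13 such markers with a peak, of 17, 9 were higher in KO and 0 in WT at equal number, with a median log2 ratio of 0.32 against 0.15 for all genes. Of 10 with a peak at equal covered length, 4 were higher in KO and 0 in WT, against 33.2% and 19.5% of all genes. Foxp3, the transcription factor of regulatory T cells, had 4.58 and 3.91 kb in KO libraries and 2.22 and 2.08 kb in WT libraries. Il21, a cytokine of follicular helper and Th17 cells, had 10.0 and 8.84 kb in KO libraries and 3.61 and 4.24 kb in WT libraries. Il4, the Th2 cytokine, had 0.168 and 0.220 kb in KO libraries and no peak in either WT library. Il17a, Il17f and Il5 had no peak in any library. Foxp3 and Il4 were chosen after their values were seen.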
